A study of Mus musculus with 16 samples.

Results

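The T helper lineage transcription factors examined here are a list of 9 genes, Tbx21, Eomes, Gata3, Rora, Bcl6, Maf, Ahr, Tcf7 and Lef1, out of 55291 gene symbols in the deposited tables. They were taken by symbol, with no threshold on any measured value, but the list was chosen with earlier results of these data known. All 9 passed the filter on low counts and were tested. Spleens of male C57BL/6 mice were made into cell suspensions, and their total RNA was sequenced after ribosomal RNA depletion, in 16 libraries. The mice received a daily dose of 62.5 mg of cream with 5% imiquimod on shaved back skin, a treatment used to model psoriasis in which imiquimod activates Toll-like receptor 7. The study asked about the kinase PKR, which double-stranded RNA activates, in this model.

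The 8 groups were PKR KO mice on days 0, 1, 2 and 5 (KO_D0, KO_D1, KO_D2, KO_D5) and WT mice on the same days (WT_D0, WT_D1, WT_D2, WT_D5), with 2 libraries per group. Each library pooled the spleens of 2 mice, so n = 2 throughout and the spread between single mice was not measured. All spleens were passed through a 70 µm mesh and treated with red cell lysis buffer. The labels give no age, no cream without imiquimod and no untreated group on a later day, so a change from day 0 cannot be told apart from handling, the cream base or the day of sampling. Libraries held 35026754 to 67333830 fragments, and a member had 29 to 5109 fragments in a library.

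Naive helper T cells choose a fate when antigen, co-stimulation and cytokines switch on a lineage-defining transcription factor. T-bet (Tbx21) directs the type 1 fate, GATA3 the type 2 fate, RORα (Rora), with RORγt, and the ligand-activated receptor AHR take part in the type 17 fate, and BCL6 with c-MAF directs follicular helper cells. TCF-1 (Tcf7) and LEF-1, the nuclear partners of β-catenin, maintain naive and memory T cells, and Eomes is the T-box factor of memory CD8 and natural killer cells. None of these factors is restricted to helper T cells: in the spleen, natural killer cells use T-bet and Eomes, germinal centre B cells use BCL6, macrophages use c-MAF, and innate lymphoid cells use GATA3 and RORα.

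All coordinates are on mm10, for the transcript that stands for each gene. Tbx21 (chromosome 11, 97098071 to 97115331, minus strand) and Tcf7 (chromosome 11, 52252371 to 52282571, minus strand) lie on the same chromosome. Eomes (chromosome 9, 118478344 to 118486132, plus strand) and Rora (chromosome 9, 68653786 to 69388246, plus strand) also share one. Gata3 lies on chromosome 2 (9857078 to 9878600, minus strand), Lef1 on chromosome 3 (131110471 to 131224356, plus strand) and Maf on chromosome 8 (115701435 to 115707794, minus strand). Ahr lies on chromosome 12 (35497974 to 35535038, minus strand) and Bcl6 on chromosome 16 (23965052 to 23988852, minus strand).

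Promoter windows of 300 bases, from 250 bases before to 50 after the annotated start, were found for 7 of the 9 genes in RefSeq on GRCm38.p6, the build also called mm10; Maf and Ahr had no entry. The windows of the 2 T-box genes, Tbx21 (chr11:97115282-97115581, minus strand) and Eomes (chr9:118477939-118478238, plus strand), and of the 2 TCF/LEF genes, Tcf7 (chr11:52282546-52282845, minus strand) and Lef1 (chr3:131110073-131110372, plus strand), are shown because members of each pair moved differently, as described below. The annotated start lay 155 bases from the start of the transcript measured for Eomes, 148 for Lef1, 24 for Tcf7 and 0 for Tbx21. The Eomes and Lef1 windows thus end before the start of the transcript measured. Each window runs 5′ to 3′ on the gene's strand, and capitals mark every match to a motif searched, on either strand.
Tbx21: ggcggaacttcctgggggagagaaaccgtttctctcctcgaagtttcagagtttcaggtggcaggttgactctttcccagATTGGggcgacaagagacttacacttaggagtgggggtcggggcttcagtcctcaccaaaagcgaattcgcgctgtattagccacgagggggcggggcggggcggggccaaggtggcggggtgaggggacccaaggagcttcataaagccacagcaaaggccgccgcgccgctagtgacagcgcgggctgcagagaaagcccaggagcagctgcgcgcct
Eomes: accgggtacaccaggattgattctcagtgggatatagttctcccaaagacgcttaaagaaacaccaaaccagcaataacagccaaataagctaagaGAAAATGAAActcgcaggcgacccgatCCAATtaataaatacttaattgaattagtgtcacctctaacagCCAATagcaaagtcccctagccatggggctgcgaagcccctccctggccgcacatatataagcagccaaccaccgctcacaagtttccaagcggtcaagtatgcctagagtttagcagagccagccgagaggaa
Tcf7: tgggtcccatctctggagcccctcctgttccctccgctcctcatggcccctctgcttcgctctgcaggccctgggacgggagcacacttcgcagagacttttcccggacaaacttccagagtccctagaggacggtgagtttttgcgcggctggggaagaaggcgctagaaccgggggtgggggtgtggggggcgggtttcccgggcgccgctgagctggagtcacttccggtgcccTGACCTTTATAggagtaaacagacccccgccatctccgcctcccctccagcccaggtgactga
Lef1: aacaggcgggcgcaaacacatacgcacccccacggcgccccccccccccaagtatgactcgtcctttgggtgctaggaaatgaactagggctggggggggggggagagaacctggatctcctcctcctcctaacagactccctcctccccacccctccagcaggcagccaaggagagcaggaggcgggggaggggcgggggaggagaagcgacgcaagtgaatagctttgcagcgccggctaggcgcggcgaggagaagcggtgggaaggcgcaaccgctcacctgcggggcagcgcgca
The motifs were AGGTGTGA for T-box factors, CTTTGA for TCF and LEF factors, AGATAA for GATA factors, the STAT-bound GAS element TTCNNNGAA, the AHR response core (T, any base, then GCGTG) and the RORE core AGGTCA. Also searched were the interferon-response core (GAAA, 2 bases of any kind, then GAAA again), the TATAAA box and the CCAAT box. The capitals in Tbx21 are 1 CCAAT box read on the opposite strand. Those in Eomes are 1 interferon-response core and 2 CCAAT boxes. Those in Tcf7 are an overlapping RORE core and TATAAA box, both read on the opposite strand, and Lef1 had no match. Of the other windows, Bcl6 held 1 GAS element, Rora held 1 CCAAT box and Gata3 held no match. Over all 32851 windows in the table the interferon-response core was in 3.44%, the GAS element in 8.3%, the RORE core in 16.3%, the TATAAA box in 13.6% and the CCAAT box in 37.4%. The T-box, TCF/LEF, GATA and AHR motifs, in 1.28%, 16%, 11.2% and 5.07% of all windows, were in none of the 7. A match is a string of letters and shows no binding.

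Eif2ak2, the gene of PKR, still gave reads in the PKR KO; where the gene was disrupted is not stated by the labels. It had 12.4 and 15.4 CPM (counts per 1000000 fragments after TMM scaling) in KO_D0, against 24.9 and 26.6 CPM in WT_D0. On day 1 it had 43.0 and 37.0 CPM in KO_D1, against 100.6 and 96.1 CPM in WT_D1. On day 5 it had 15.8 and 18.8 CPM in KO_D5, against 29.2 and 30.2 CPM in WT_D5. On day 2 the library labelled KO_D2 replicate 1 had 47.5 CPM and KO_D2 replicate 2 had 21.5 CPM, against 32.8 and 42.5 CPM in WT_D2. The level in the library labelled KO_D2 replicate 1 thus goes against its label, and the changes of the members in KO_D2 are also given without it. The KO against WT difference in Eif2ak2 was not called on any day, with adjusted p between 0.117 on day 1 and 0.994 on day 2.

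The tissue label fits the marker genes: B cell and T cell markers were all detected in every group. The summed level of 18 T cell markers, among them the CD3 chains, Cd4 and Cd8a, was 861 and 864 CPM in KO_D0, 434 and 393 in KO_D1, 156 and 231 in KO_D2, and 339 and 425 in KO_D5. It was 917 and 789 CPM in WT_D0, 497 and 564 in WT_D1, 222 and 219 in WT_D2, and 377 and 346 in WT_D5. The library labelled KO_D2 replicate 1 thus had the lowest T cell marker sum of all, and it also had the highest plasma cell marker sum, 2480 CPM, against 1361 CPM in the other KO_D2 library. In bulk tissue, fewer T cells and less RNA of a gene per T cell cannot be told apart. Nor can changes in other spleen cells that express a member. This holds for every member below.

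Per transcript length (FPKM, fragments per kilobase of transcript and 1000000 fragments), Tcf7 was the most abundant member on day 0 and Rora the least. On day 2 in PKR KO mice Bcl6 had 6.07 and 8.64 FPKM in KO_D2 and Tcf7 3.84 and 9.92 FPKM in KO_D2, so that this order did not hold there. On day 0 Tcf7 had 24.1 and 24.1 FPKM in KO_D0 and 31.6 and 30.7 FPKM in WT_D0. Lef1 had 12.2 and 13.9 FPKM in KO_D0 and 14.4 and 15.5 FPKM in WT_D0. Bcl6 followed with 8.17 and 8.45 FPKM in KO_D0 and 9.22 and 8.12 FPKM in WT_D0. Tbx21, Eomes, Maf and Ahr lay between 2.05 and 3.27 FPKM in the day 0 libraries, without a clear order among them, and Gata3 between 1.48 and 1.76 FPKM. Rora had 0.621 and 0.583 FPKM in KO_D0, 0.567 and 0.538 FPKM in WT_D0, and stayed under 1 FPKM in every library.

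On day 1 against day 0, Tbx21 was the only member that rose in either genotype, and Eomes, Gata3, Rora, Ahr and Lef1 fell in both. In PKR KO mice 1 member rose and 5 fell, where 20.7% and 20.9% of the 18745 genes tested did. In WT mice 1 rose and 5 fell, where 21.9% and 22.7% of all genes did. On day 2 most members were at their lowest: in PKR KO mice 1 rose and 7 fell (24% and 25.6% of all genes), and in WT mice none rose and 8 fell (22.3% and 23%). By day 5, 4 members were below day 0 in PKR KO mice (22.1% of all genes fell) and 5 in WT mice (18%), and none was above (22.8% and 21.5% of all genes rose). Over days 1, 2 and 5 the median log2 change of the 9 members was -0.92, -1.64 and -0.59 in PKR KO mice, against -0.04, -0.06 and -0.03 over all genes. In WT mice it was -0.54, -1.64 and -0.50, against -0.07, -0.06 and -0.01 over all genes. Because the members were chosen with earlier results of these data known, these shares and medians are a description. All tests are edgeR quasi-likelihood F tests, two-sided, with p adjusted by Benjamini-Hochberg over all 18745 genes and calls at 0.05; ± after a log2 change is its SE. Without the library labelled KO_D2 replicate 1, Maf was not called on day 2 (log2 change -0.44, adjusted p = 0.059) and the other 7 calls in PKR KO mice held. The changes were then 0.64 for Tbx21 (adjusted p = 0.0477), -1.54 for Eomes (1.3e-05), -1.46 for Rora (3.55e-05) and -1.76 for Ahr (2.54e-06); Bcl6, not called, was at 0.07, and Gata3, Tcf7 and Lef1 are given below.

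Markers of several cell types moved beside these counts, the T cell markers among them. Of the 18 tested, 16, 18 and 17 fell on days 1, 2 and 5 in PKR KO mice, and 12, 18 and 18 in WT mice; none rose. Their median log2 change was -1.15, -2.48 and -1.22 in PKR KO mice and -0.75, -2.29 and -1.24 in WT mice. On day 5, all 10 erythroid markers had risen in both genotypes, with a summed level of 11480 and 8909 CPM in KO_D5 against 508 and 799 CPM in KO_D0, and of 6353 and 4438 CPM in WT_D5 against 249 and 660 CPM in WT_D0. All 10 proliferation genes rose on each of the 3 days in both genotypes, with median log2 changes of 2.43, 3.32 and 3.42 on days 1, 2 and 5 in PKR KO mice and 2.23, 2.97 and 2.92 in WT mice. Of 8 conventional dendritic cell markers, 7, 8 and 3 fell in PKR KO mice and 8, 8 and 3 in WT mice, with a median on day 2 of -2.14 and -1.94. Of 10 B cell markers, 6, 7 and 9 fell in PKR KO mice and 4, 5 and 8 in WT mice. Of 9 neutrophil markers, 3 fell in KO_D2 and 6 in WT_D2. The part of these shifts in the members' changes was not tested, beyond the ratios to CD3 given below.

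**Figure D1:**
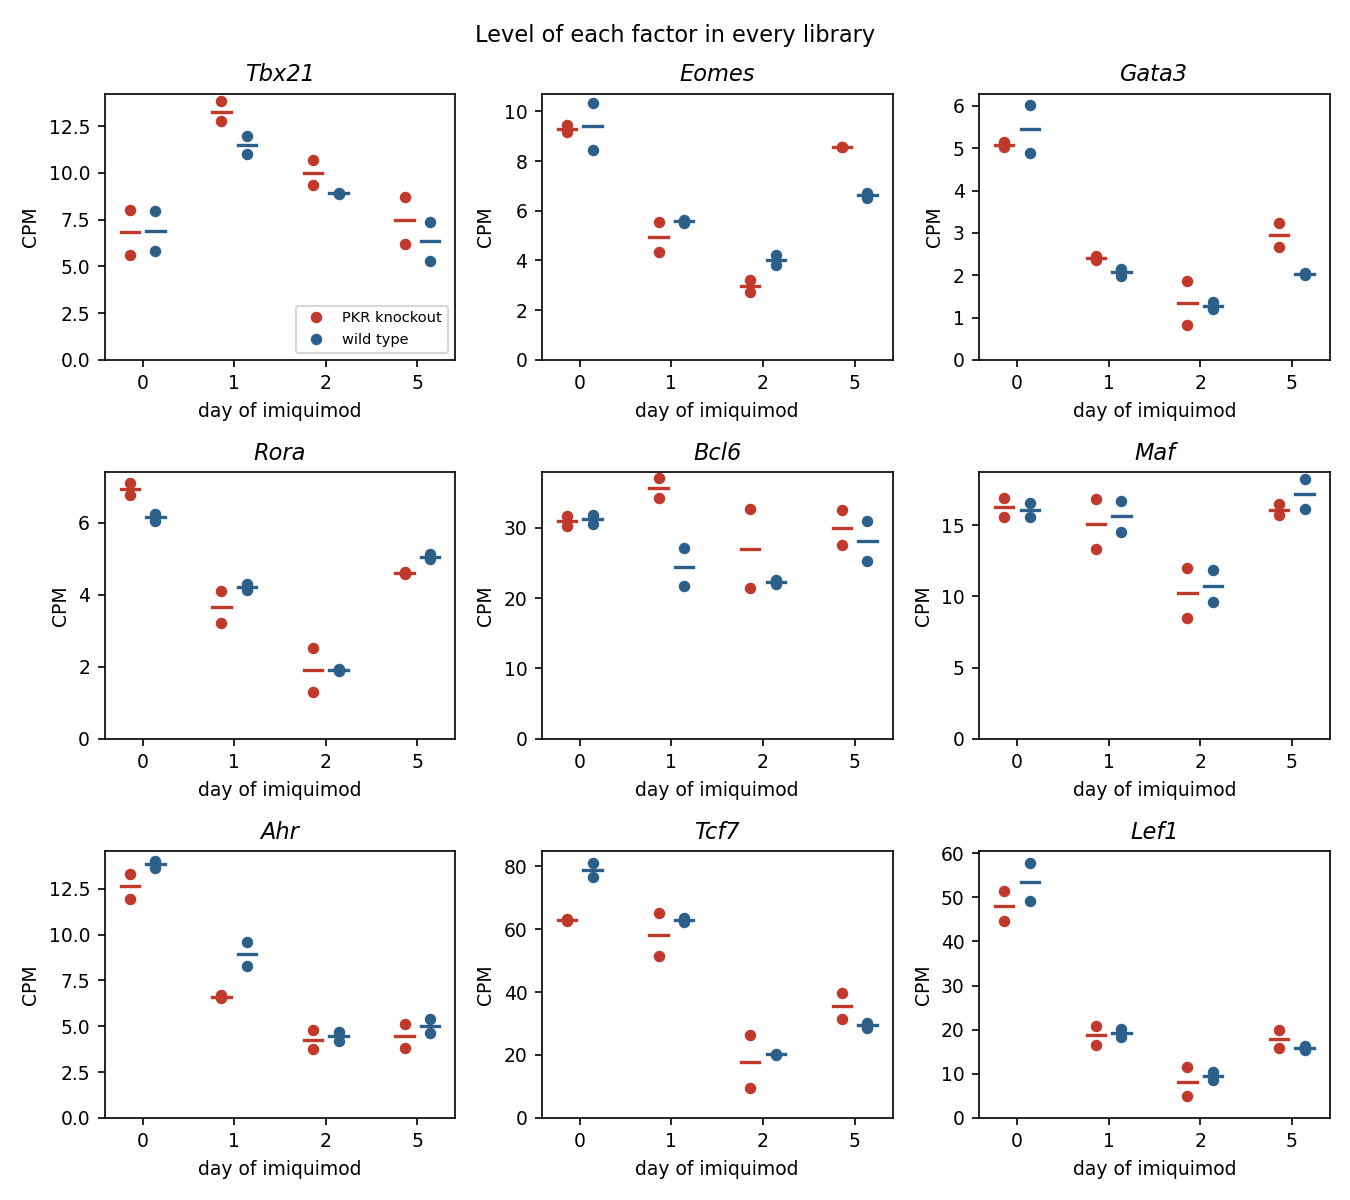
Level of each of the 9 factors in CPM by day of imiquimod, with 1 point per library and a line at the mean of the 2 libraries, PKR KO left of WT. Tbx21 is highest on day 1, Eomes, Gata3, Rora, Tcf7 and Lef1 have their lowest means on day 2, and Ahr is about as low on day 5 as on day 2.

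Tbx21, which encodes T-bet, the master regulator of type 1 helper cells, was highest on day 1 in both genotypes. It had 8.03 and 5.62 CPM in KO_D0, 12.8 and 13.8 in KO_D1, 9.33 and 10.7 in KO_D2, and 6.19 and 8.73 in KO_D5. It had 7.98 and 5.83 CPM in WT_D0, 12.0 and 11.0 in WT_D1, 8.94 and 8.87 in WT_D2, and 7.38 and 5.31 in WT_D5. All 4 day 1 libraries and all 4 day 2 libraries lay above all 4 day 0 libraries, while day 5 overlapped day 0. The log2 change on day 1 was 0.96 ± 0.21 in PKR KO mice (1.94-fold, adjusted p = 0.00109) and 0.74 ± 0.20 in WT mice (1.67-fold, adjusted p = 0.00636). On day 2 it was 0.55 ± 0.21 in PKR KO mice (adjusted p = 0.0354) and 0.37 ± 0.21 in WT mice (adjusted p = 0.15). The day 2 call in PKR KO mice did not survive leaving out KO_D0 replicate 2 (0.39, adjusted p = 0.212) or KO_D2 replicate 2 (0.50, adjusted p = 0.119), nor did the day 1 call in WT mice without WT_D0 replicate 2 (0.52, adjusted p = 0.106). Without WT_D0 replicate 1 the day 2 change in WT mice was called (0.67, adjusted p = 0.0384).

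Eomes, the T-box relative of Tbx21, went the other way. It had 9.45 and 9.18 CPM in KO_D0, 5.56 and 4.33 in KO_D1, 2.74 and 3.21 in KO_D2, and 8.55 and 8.58 in KO_D5. It had 10.3 and 8.45 CPM in WT_D0, 5.63 and 5.52 in WT_D1, 4.24 and 3.82 in WT_D2, and 6.72 and 6.53 in WT_D5. The day 2 libraries were the lowest and the day 0 libraries, with KO_D5, the highest. Eomes fell, with log2 changes of -0.92 ± 0.16 on day 1 and -1.64 ± 0.17 on day 2 in PKR KO mice (adjusted p = 0.000209 and 3.34e-07), that is 1.89-fold and 3.13-fold. The log2 changes were -0.75 ± 0.16 and -1.22 ± 0.17 in WT mice (adjusted p = 0.000944 and 9.02e-06). On day 5 the log2 change was -0.12 ± 0.16 in PKR KO mice (adjusted p = 0.574) and -0.50 ± 0.16 in WT mice (adjusted p = 0.019). The WT call on day 5 was lost when WT_D0 replicate 1 (-0.30, adjusted p = 0.247) or either WT_D5 library was left out (-0.49 and -0.48, adjusted p = 0.0913 and 0.107).

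Within each library, Tbx21 and Eomes were about equal per length on day 0 and far apart on days 1 and 2. The log2 ratio of Tbx21 to Eomes FPKM was 1.72 and 2.19 in KO_D1 and 2.29 and 2.25 in KO_D2, against 0.28 and -0.19 in KO_D0. It was 1.61 and 1.51 in WT_D1 and 1.59 and 1.73 in WT_D2, against 0.14 and -0.02 in WT_D0. Every day 1 and day 2 library was above every day 0 library. On day 5 it was 0.05 and 0.54 in KO_D5 and 0.65 and 0.22 in WT_D5, which overlapped day 0. The difference from day 0 over both genotypes was 1.70 on day 1 and 1.91 on day 2 (exact two-sided permutation p = 0.0556 each, the smallest that the 36 splits within genotype allow), and 0.31 on day 5 (exact p = 0.167). The ratios of this pair and of Tcf7 to Lef1 were chosen after the values had been seen; over the 6 tests the adjusted p was 0.0667 for the others and 0.167 for this last. With any 1 library left out, the day 2 difference was 1.79 to 2.03.

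**Figure D2:**
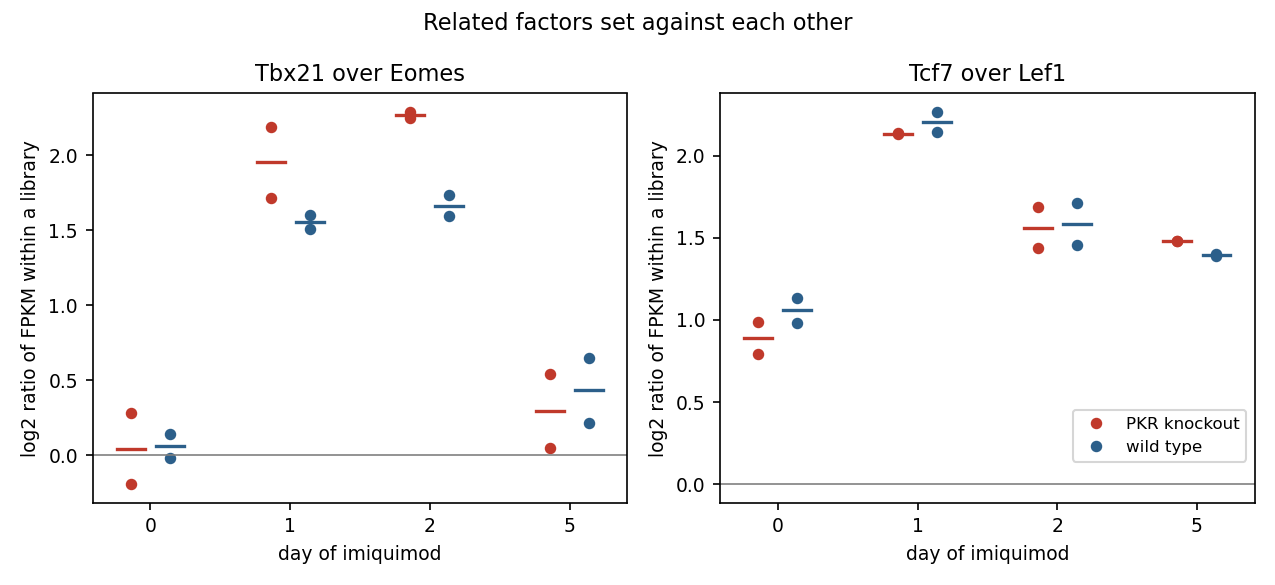
Log2 ratio of FPKM within each library, Tbx21 over Eomes on the left and Tcf7 over Lef1 on the right, by day of imiquimod, with 1 point per library, lines at group means and PKR KO left of WT. The Tbx21 ratio lies between 1.51 and 2.29 on days 1 and 2 and between -0.19 and 0.28 on day 0, and the Tcf7 ratio peaks on day 1 between 2.13 and 2.27.

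The markers and receptors around these 2 genes moved in both directions. Of 11 genes of the type 1 programme, 2 rose and 6 fell on day 1 in PKR KO mice, and 3 rose and 5 fell in WT mice. On day 2, 2 rose and 8 fell in each genotype. Cxcr3, a chemokine receptor gene that T-bet activates, rose on day 2 by 0.84 ± 0.17 in PKR KO mice and 0.82 ± 0.17 in WT mice (log2). Il18r1, which encodes a subunit of the interleukin-18 receptor, fell on day 2, with log2 changes of -2.12 ± 0.17 in PKR KO mice and -2.02 ± 0.17 in WT mice. Of 12 natural killer and cytotoxic cell markers, 8, 10 and 11 fell on days 1, 2 and 5 in PKR KO mice, and 5, 9 and 9 in WT mice. One of them, Gzma, a granzyme gene, rose in WT mice on day 1 (0.74 ± 0.15, log2). The share of natural killer cells in the changes of Tbx21 and Eomes was not tested.

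Gata3, the type 2 regulator that all T cells also need to develop, was below day 0 on every later day sampled. It had 5.02 and 5.15 CPM in KO_D0, 2.45 and 2.36 in KO_D1, 0.818 and 1.85 in KO_D2, and 2.67 and 3.23 in KO_D5. It had 4.88 and 6.03 CPM in WT_D0, 2.15 and 1.98 in WT_D1, 1.20 and 1.36 in WT_D2, and 2.00 and 2.06 in WT_D5. No later library reached the lowest day 0 library of its genotype. In PKR KO mice Gata3 fell, with log2 changes of -1.08 ± 0.25, -1.92 ± 0.27 and -0.79 ± 0.25 on days 1, 2 and 5 (adjusted p = 0.00199, 1.06e-05 and 0.0157). In WT mice it fell, with log2 changes of -1.41 ± 0.25, -2.09 ± 0.27 and -1.43 ± 0.25 (adjusted p = 0.000162, 4.2e-06 and 0.000214). The KO_D5 call was lost without KO_D0 replicate 1 (-0.74, adjusted p = 0.075), KO_D0 replicate 2 (-0.72, adjusted p = 0.084) or KO_D5 replicate 1 (-0.58, adjusted p = 0.187) and with the sum of all transcripts (adjusted p = 0.069). On day 2 the library labelled KO_D2 replicate 1 held 29 Gata3 fragments; without it the log2 change was -1.46 (adjusted p = 0.000153).

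Of 10 genes of the type 2 programme, 7 had enough counts to be tested. Of these, 5, 7 and 5 fell in PKR KO mice on days 1, 2 and 5, and 3, 6 and 3 in WT mice. Il4ra, which encodes the interleukin-4 receptor chain, fell on day 2, with log2 changes of -1.21 ± 0.15 in PKR KO mice and -1.07 ± 0.15 in WT mice. Il1rl1, the gene of the interleukin-33 receptor ST2, was the exception on day 5, where it rose by 2.28 ± 0.49 in PKR KO mice and 2.36 ± 0.48 in WT mice (log2). The cytokine genes Il5 and Il13 were among the 3 with too few counts.

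Rora, which marks type 2 innate lymphoid cells and takes part in the type 17 fate, was lowest on day 2 in both genotypes. It had 7.10 and 6.76 CPM in KO_D0, 4.11 and 3.22 in KO_D1, 1.30 and 2.52 in KO_D2, and 4.58 and 4.62 in KO_D5. It had 6.06 and 6.25 CPM in WT_D0, 4.13 and 4.31 in WT_D1, 1.87 and 1.93 in WT_D2, and 5.13 and 4.99 in WT_D5. Every later library was below both day 0 libraries of its genotype. Rora fell on day 2, with log2 changes of -1.85 ± 0.23 in PKR KO mice and -1.69 ± 0.23 in WT mice (adjusted p = 2.46e-06 and 7.36e-06). On day 1 it fell, with log2 changes of -0.92 ± 0.21 in PKR KO mice and -0.54 ± 0.21 in WT mice (adjusted p = 0.00199 and 0.0399). On day 5 the log2 change was -0.59 ± 0.21 in PKR KO mice (adjusted p = 0.0307) and -0.28 ± 0.21 in WT mice (adjusted p = 0.303). The calls in WT mice on day 1 and in PKR KO mice on day 5 sat near the threshold and were lost in most omissions of a single library (adjusted p up to 0.162 and 0.185) and with the sum of all transcripts (adjusted p = 0.153 and 0.23).

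Ahr, the receptor for environmental and dietary ligands, fell and was still low on day 5. It had 12.0 and 13.3 CPM in KO_D0, 6.70 and 6.54 in KO_D1, 4.79 and 3.75 in KO_D2, and 3.81 and 5.14 in KO_D5. It had 13.7 and 14.03 CPM in WT_D0, 9.61 and 8.30 in WT_D1, 4.67 and 4.22 in WT_D2, and 5.38 and 4.62 in WT_D5. The day 5 libraries overlapped those of day 2 in both genotypes and were far below day 0. In PKR KO mice Ahr fell, with log2 changes of -0.93 ± 0.17, -1.57 ± 0.17 and -1.50 ± 0.17 on days 1, 2 and 5 (adjusted p = 0.000204, 6.61e-07 and 1.37e-06). In WT mice it fell, with log2 changes of -0.63 ± 0.16, -1.64 ± 0.17 and -1.47 ± 0.17 (adjusted p = 0.00412, 3.93e-07 and 2.06e-06). The WT call on day 1 was lost without WT_D1 replicate 2 (-0.51, adjusted p = 0.0686) and with limma-trend on log2(FPKM + 0.1), which has no composition scaling (-0.32, adjusted p = 0.178).

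The genes that AHR is known to activate moved in both directions. Of 8 listed, 5 could be tested, and on day 2 Cyp1b1 and Tiparp rose in both genotypes while Ugt1a6a fell in PKR KO mice and Ahrr, the AHR repressor gene, fell in WT mice. Tiparp had a mean of 8.16 FPKM in KO_D2 against 6.05 FPKM in KO_D0, and of 8.22 FPKM in WT_D2 against 5.47 FPKM in WT_D0. Its log2 change was 0.39 ± 0.15 in PKR KO mice and 0.61 ± 0.15 in WT mice (adjusted p = 0.0408 and 0.00325). Cyp1b1, a cytochrome P450 gene, rested on few fragments, 75 and 83 in KO_D2 against 2 and 6 in KO_D0, and 22 and 56 in WT_D2 against 3 and 5 in WT_D0 (adjusted p = 2.96e-06 and 7.12e-05). On day 5 Nqo1, a quinone reductase gene that NRF2 also controls, rose by 2.78 ± 0.35 in PKR KO mice and 2.95 ± 0.35 in WT mice (log2), while Tiparp fell in both. Of the type 17 programme, only 3 of 8 genes could be tested, and the cytokine genes Il17a, Il17f and Il22 were not among them.

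Bcl6, the repressor that defines follicular helper T cells and germinal centre B cells, passed the test against day 0 on 1 day in 1 genotype. It had 30.3 and 31.7 CPM in KO_D0, 37.1 and 34.2 in KO_D1, 21.5 and 32.6 in KO_D2, and 27.6 and 32.5 in KO_D5. It had 31.9 and 30.6 CPM in WT_D0, 27.1 and 21.8 in WT_D1, 22.6 and 22.1 in WT_D2, and 31.0 and 25.4 in WT_D5. On day 1 both KO libraries lay above both KO_D0 libraries and both WT libraries below both WT_D0 libraries. The only call against day 0 was on day 2 in WT mice, where Bcl6 fell by 0.49 ± 0.16 (log2, adjusted p = 0.0222); this was lost without either library of WT_D0, WT_D2 or KO_D0 or without KO_D1 replicate 1 (adjusted p between 0.0504 and 0.15). On day 1 the log2 change was 0.20 ± 0.16 in PKR KO mice and -0.36 ± 0.16 in WT mice (adjusted p = 0.348 and 0.0837). With either KO_D2 library left out, the WT change on day 1 was called (-0.35 and -0.33, adjusted p = 0.0343 and 0.044), and without KO_D2 replicate 2 so was the KO change on day 2 (-0.47, adjusted p = 0.0273).

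Maf, which encodes c-MAF, a partner of BCL6 in follicular helper cells and a factor of tissue macrophages, dipped on day 2. It had 15.6 and 16.9 CPM in KO_D0, 13.4 and 16.8 in KO_D1, 8.52 and 12.0 in KO_D2, and 16.5 and 15.7 in KO_D5. It had 15.5 and 16.6 CPM in WT_D0, 16.7 and 14.5 in WT_D1, 9.58 and 11.9 in WT_D2, and 18.2 and 16.2 in WT_D5. The 4 day 2 libraries lay below all others, and the other days overlapped each other. On day 2 Maf fell, with log2 changes of -0.66 ± 0.17 in PKR KO mice and -0.58 ± 0.16 in WT mice (adjusted p = 0.00281 and 0.00759). The WT call was lost without WT_D0 replicate 2 (-0.50, adjusted p = 0.0626) or WT_D2 replicate 1 (-0.39, adjusted p = 0.157), and the KO call without KO_D0 replicate 2 (-0.52, adjusted p = 0.0505). Of 12 spleen macrophage markers, 7 fell in KO_D2 and 9 in WT_D2, and 8 and 6 had risen above day 0 by day 5; their part in the course of Maf was not tested.

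Of 10 genes of the follicular helper programme, 9 were tested. On day 2, 3 rose and 6 fell in PKR KO mice and 6 fell in WT mice. Those that rose in PKR KO mice were Il21, the cytokine gene of follicular helper cells, Tox2 and Pdcd1. A genotype difference is not shown by this: no gene of the list was called between KO_D2 and WT_D2. Nor was any gene called for a genotype difference in the day 2 change. Cxcr5, the receptor gene that brings these cells and B cells into follicles, fell on day 5, with log2 changes of -1.15 ± 0.14 in PKR KO mice and -0.98 ± 0.14 in WT mice. Of 8 germinal centre B cell markers, 3 rose and 3 fell on day 2 in each genotype. Prdm1, the gene of Blimp-1, which BCL6 represses and which represses BCL6 in turn, rose by 3.34 ± 0.23 on day 2 in PKR KO mice and by 3.03 ± 0.23 in WT mice (log2). Plasma cells also express Prdm1, and all 8 plasma cell markers rose on day 2 in both genotypes.

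Tcf7 and Lef1, the naive T cell pair, parted on day 1. Tcf7 had 62.7 and 63.4 CPM in KO_D0, 65.0 and 51.4 in KO_D1, 9.53 and 26.3 in KO_D2, and 31.5 and 39.7 in KO_D5. It had 76.6 and 81.1 CPM in WT_D0, 62.2 and 63.5 in WT_D1, 20.1 and 20.3 in WT_D2, and 28.7 and 30.2 in WT_D5. On day 1 the KO libraries lay on both sides of KO_D0 and the WT libraries below WT_D0, and all later libraries were lower still. The log2 change on day 1 was -0.12 ± 0.34 in PKR KO mice and -0.33 ± 0.33 in WT mice (adjusted p = 0.814 and 0.452). Tcf7 fell on day 2, with log2 changes of -1.81 ± 0.35 in PKR KO mice and -1.97 ± 0.35 in WT mice (adjusted p = 0.00179 and 0.00123).

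On day 5 Tcf7 remained below day 0 in all libraries, with log2 changes of -0.83 ± 0.34 in PKR KO mice (adjusted p = 0.0745) and -1.42 ± 0.34 in WT mice (adjusted p = 0.00867). The KO_D2 libraries differed widely in Tcf7, and leaving out the one labelled replicate 1 made the KO_D5 change a call at about the same size (-0.83, adjusted p = 2.65e-05), as did leaving out the other (-0.76, adjusted p = 6.56e-05). The WT_D5 call was lost without either WT_D5 library (adjusted p = 0.0683 and 0.0567). On day 2, a fit of only KO_D2 and KO_D0 gave a Tcf7 change of -1.75 that was not called (adjusted p = 0.145). When KO_D2 replicate 1 was left out, it was -1.27 (adjusted p = 4.81e-06), and the WT change on day 1 was called at -0.32 (adjusted p = 0.0412).

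Lef1 had already fallen by day 1. It had 44.6 and 51.5 CPM in KO_D0, 20.9 and 16.5 in KO_D1, 4.96 and 11.5 in KO_D2, and 15.9 and 20.0 in KO_D5. It had 49.2 and 57.8 CPM in WT_D0, 18.2 and 20.3 in WT_D1, 8.65 and 10.5 in WT_D2, and 15.3 and 16.3 in WT_D5. No later library came near day 0, and days 1 and 5 overlapped in PKR KO mice. In PKR KO mice Lef1 fell, with log2 changes of -1.36 ± 0.28, -2.54 ± 0.30 and -1.42 ± 0.28 on days 1, 2 and 5 (adjusted p = 0.00233, 2.57e-05 and 0.00165), that is 2.57-fold, 5.81-fold and 2.68-fold. In WT mice it fell, with log2 changes of -1.48 ± 0.28, -2.48 ± 0.29 and -1.76 ± 0.28 (adjusted p = 0.00125, 3.35e-05 and 0.000492). With the library labelled KO_D2 replicate 1 left out, the day 2 change in PKR KO mice was -2.07 (adjusted p = 1.15e-07).

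The log2 ratio of Tcf7 to Lef1 FPKM within a library showed the parting without any scaling between libraries. It was 2.13 and 2.14 in KO_D1 and 2.27 and 2.14 in WT_D1, against 0.99 and 0.79 in KO_D0 and 1.13 and 0.98 in WT_D0. All 4 day 1 libraries were above all 4 day 0 libraries. Over both genotypes days 1, 2 and 5 differed from day 0 by 1.19, 0.60 and 0.46 (exact two-sided permutation p = 0.0556 each, the smallest that 36 splits allow; adjusted p = 0.0667). This ratio too was chosen after the values had been seen, so these p-values give no independent support. Of 12 naive T cell genes, 10 fell on day 1 in PKR KO mice and 11 in WT mice, and all 12 fell on days 2 and 5 in both. On day 5 Klf2 and S1pr1, which keep naive cells circulating, had some of the smallest adjusted p in both genotypes.

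**Figure D3:**
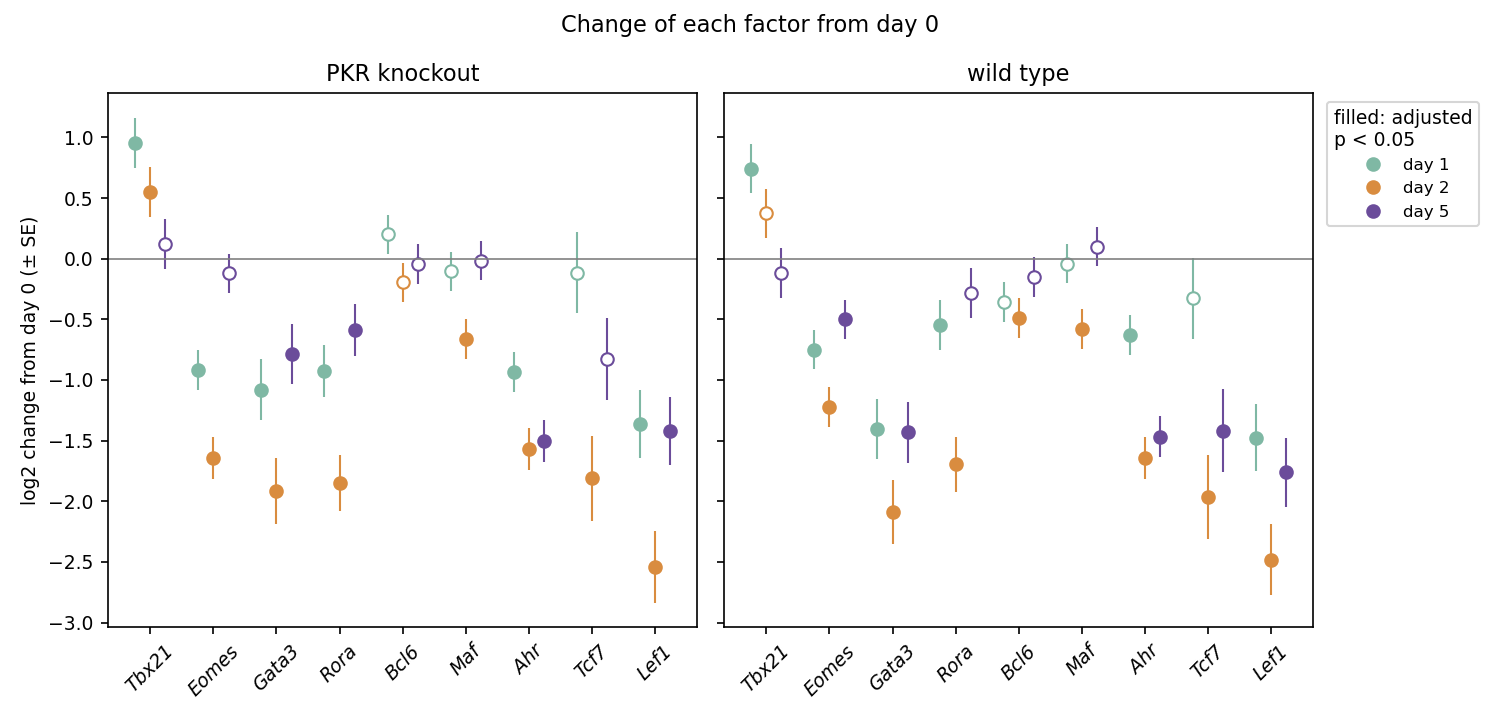
Log2 change of each factor from day 0 of its own genotype with its SE (edgeR, n = 2 libraries per group), PKR KO on the left and WT on the right; filled points passed adjusted p 0.05. Lef1 on day 2 has the lowest values, -2.54 in PKR KO mice and -2.48 in WT mice, and Tbx21 on day 1 the highest, 0.96 and 0.74.

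The members were also set against the CD3 genes. The difference between a member's log2 CPM and the mean log2 CPM of Cd3d, Cd3e and Cd3g was taken in each library and expressed relative to its mean on day 0; it is a description with no test. The CD3 mean itself changed by -3.46 and -2.15 in KO_D2 relative to KO_D0 and by -2.62 and -2.42 in WT_D2 relative to WT_D0 (log2). Tbx21 was above its day 0 ratio by 3.94 and 2.82 in KO_D2 and by 3.01 and 2.80 in WT_D2. Bcl6 was above by 2.93 and 2.23 in KO_D2 and by 2.15 and 1.92 in WT_D2, and Maf by 2.53 and 1.72 in KO_D2 and by 1.88 and 1.99 in WT_D2. These 3 had the largest rises over the day 0 ratio by group mean on day 2 in both genotypes. Other spleen cells also use these factors, so a ratio to CD3 is not a level per T cell.

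Lef1 stayed close to CD3 on day 2. Its ratio differed from day 0 by 0.19 and 0.09 in KO_D2 and by -0.01 and 0.07 in WT_D2. On day 1 it was at -0.05 and -0.34 in KO_D1 and at -0.82 and -0.89 in WT_D1. On day 5 it was at 0.06 and 0.04 in KO_D5 and at -0.39 and -0.21 in WT_D5. Both WT libraries thus lay below the day 0 mean on each of these days. The WT_D0 libraries themselves were at -0.20 and 0.20, so WT_D5 replicate 2 was about level with the lower of them. Gata3 also lay below its day 0 ratio in WT_D1, at -0.61 and -0.95, and not in KO_D1, at 0.09 and 0.09. Eomes was above its day 0 ratio by 1.70 and 0.62 in KO_D2 and by 1.48 and 1.13 in WT_D2, and it was still above by 1.53 and 1.18 in KO_D5 and by 0.94 and 0.99 in WT_D5. Gata3 lay 0.83 and 0.70 above its day 0 ratio in KO_D2 and 0.44 and 0.43 above in WT_D2, and Rora 1.05 and 0.69 above in KO_D2 and 0.90 and 0.75 above in WT_D2. Ahr was above its day 0 ratio by 2.06 and 0.40 in KO_D2 and by 1.05 and 0.71 in WT_D2. On day 5 it was near that ratio, at -0.08 and -0.002 in KO_D5 and 0.05 and -0.08 in WT_D5. Tcf7 was above its day 0 ratio in both genotypes on days 1 and 2. It was above by 1.19 and 0.905 in KO_D1 and by 0.39 and 0.19 in WT_D1. On day 2 it was above by 0.74 and 0.89 in KO_D2 and by 0.65 and 0.47 in WT_D2. On day 5 Tcf7 was above that ratio in both KO_D5 libraries (0.65 and 0.63) and near it in WT_D5 (-0.05 and 0.12).

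**Figure D4:**
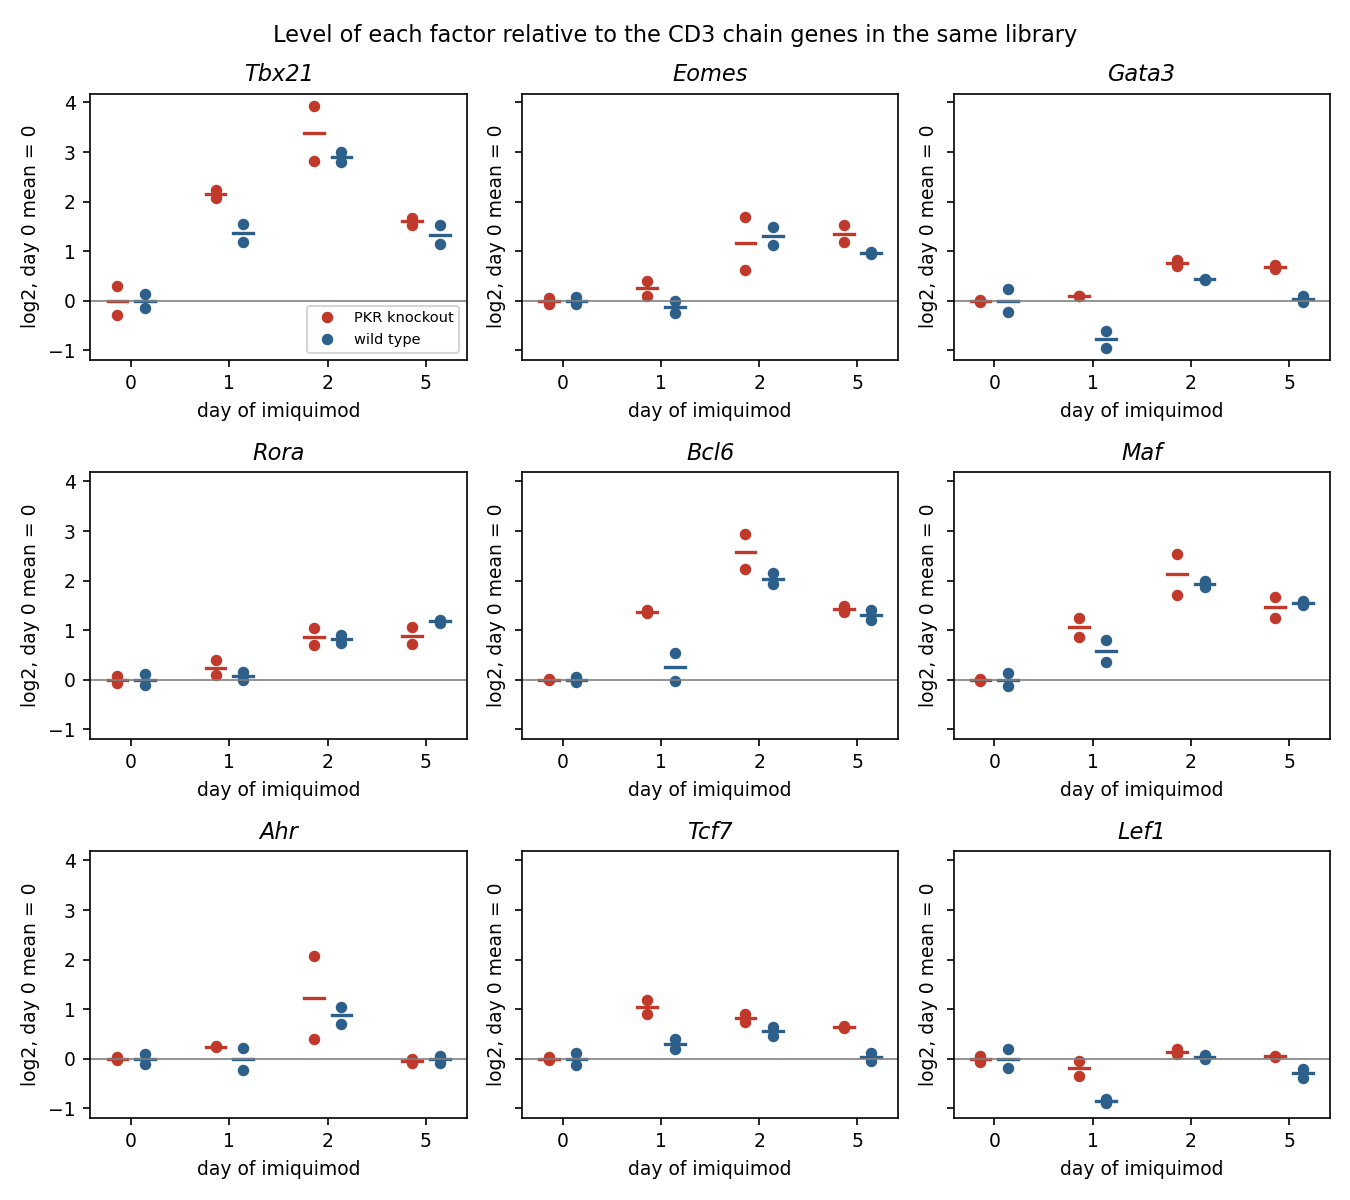
Log2 CPM of each factor minus the mean log2 CPM of Cd3d, Cd3e and Cd3g in the same library, by day of imiquimod. Values are relative to the day 0 mean of the same genotype, which is set to 0. There is 1 point per library, with lines at group means and PKR KO left of WT. On day 2 Tbx21, Bcl6 and Maf lie highest against CD3, Eomes and Ahr lie above day 0 in every library, and Lef1 lies near day 0. Lef1 is below the day 0 mean in WT mice on days 1 and 5, and so is Gata3 on day 1.

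Between days 2 and 5 several members rose again. In PKR KO mice Eomes, Gata3, Rora, Maf and Lef1 rose in KO_D5 against KO_D2, 5 of 9, where 18.4% of all genes did. In WT mice Eomes, Rora and Maf rose in WT_D5 against WT_D2, 3 of 9, where 16.2% did. No member was called lower (16% and 13.1% of all genes were). In WT mice Tbx21 was called lower with no filter (-0.50, adjusted p = 0.0297) and in a fit of only those groups (-0.49, adjusted p = 0.0392), against -0.49 with adjusted p = 0.0879 here. The largest rise in PKR KO mice was that of Eomes, 1.52 ± 0.17, against 0.72 ± 0.17 in WT mice (log2, adjusted p = 1.47e-06 and 0.00303). Rora rose by 1.26 ± 0.23 in PKR KO mice and by 1.41 ± 0.23 in WT mice (log2, adjusted p = 0.000309 and 0.000112). Ahr changed by 0.06 ± 0.18 and 0.17 ± 0.18 (adjusted p = 0.822 and 0.517), and Tcf7 by 0.99 ± 0.35 and 0.55 ± 0.34 (adjusted p = 0.0525 and 0.286). Of the 18 T cell markers, 15 rose in KO_D5 against KO_D2 and 12 in WT_D5 against WT_D2.

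These counts rested in part on the KO_D2 libraries. Without the one labelled replicate 1, Gata3 and Maf were not called in KO_D5 against KO_D2 (0.67 and 0.42, adjusted p = 0.0626 and 0.0904) and Tcf7 was (0.44, adjusted p = 0.0467), which left 4 members; Eomes, Rora and Lef1 were then at 1.42, 0.87 and 0.65 (adjusted p = 5.39e-05, 0.00663 and 0.0159). Leaving out either KO_D2 library raised the number of members called in WT_D5 against WT_D2, and the number of all genes called rose as well. In KO_D5 against KO_D2 either omission lowered the number of all genes called, while leaving out replicate 2 raised the number of members called. The causes were not tested. Lef1 in PKR KO mice was lost without KO_D5 replicate 2 (0.92, adjusted p = 0.0928), and Tbx21 was then called lower (-0.71, adjusted p = 0.0473). Eomes in WT mice was lost without WT_D2 replicate 2 (0.65, adjusted p = 0.052), and Maf without WT_D2 replicate 1 (0.53, adjusted p = 0.0815) or WT_D5 replicate 1 (0.58, adjusted p = 0.0575).

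The genotypes were compared on each day, and no member was called. On day 0 the 9 log2 differences, KO minus WT, lay between -0.32 and 0.17 (adjusted p at least 0.877), where 0.0213% of all genes were called. On day 1 they lay between -0.44 and 0.54, where 0.187% of all genes were called. On day 2 they lay between -0.43 and 0.28, with no gene called (0%; 906 genes had unadjusted p under 0.05 and DESeq2 called 6), and on day 5 between -0.17 and 0.54, with 0.00533% of all genes called. Unadjusted p was under 0.05 for no member on day 0, for Ahr and Bcl6 on day 1, and for Eomes on days 2 and 5. Of the 18745 genes tested, 1114, 1718, 906 and 1177 were under it on days 0, 1, 2 and 5. DESeq2 and limma-trend called no member on any day. With 2 libraries per group the intervals are wide: the 95% interval of the Tcf7 difference on day 0 (-0.32) ran from -1.10 to 0.45, and that of the Gata3 difference on day 5 (0.54) from -0.07 to 1.15.

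Bcl6 on day 1 came nearest. It had 37.1 and 34.2 CPM in KO_D1 and 27.1 and 21.8 CPM in WT_D1, so that the libraries did not overlap. The log2 difference was 0.54 ± 0.16 (adjusted p = 0.205; 95% interval 0.17 to 0.92), and it was called with no filter (0.49, adjusted p = 0.034) and in a fit of only those groups (0.57, adjusted p = 0.0452). The test of whether the day 1 change itself differed between genotypes gave 0.55 ± 0.23 (adjusted p = 0.311), where 0.171% of all genes were called; for days 2 and 5 this share was 0%. Ahr on day 1 had 6.70 and 6.54 CPM in KO_D1 and 9.61 and 8.30 CPM in WT_D1 (-0.44 ± 0.17, adjusted p = 0.384). Such a lack of overlap was common among the members. KO and WT libraries did not overlap for Ahr, Gata3, Rora and Tbx21 on day 1 either. The same held for Tbx21 on day 2 and for Gata3, Rora and Tcf7 on day 5. Eomes had a log2 difference of -0.43 ± 0.18 between KO_D2 and WT_D2 (adjusted p = 0.956) and of 0.37 ± 0.16 between KO_D5 and WT_D5 (adjusted p = 0.74), with no overlap of libraries on either day. With the library labelled KO_D2 replicate 1 left out, the day 2 difference was -0.33 (adjusted p = 0.698).

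No member was called for a genotype difference in its change from day 0 on day 1, 2 or 5, or in the KO against WT difference averaged over the 4 days (0.0267% of all genes called in that average). Unadjusted p was under 0.05 for Bcl6 in the day 1 interaction, where 2463 of all 18745 genes were under it as well. In the average it was under 0.05 for Ahr (-0.20 ± 0.09) and Bcl6 (0.23 ± 0.08), with adjusted p of 0.855 and 0.805. There 1044 of all genes were under it. When KO_D2 replicate 2 was left out, Tcf7 was called lower in the remaining library, labelled KO_D2 replicate 1, than in WT_D2 (-1.08, adjusted p = 0.00895). With only the other KO_D2 library, the same difference was 0.38 (adjusted p = 0.516), so its sign depends on which KO_D2 library is kept.

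Among the members, patterns over the 16 libraries were alike in one group of genes and not in others, by Pearson's r of log2(CPM + 0.5), which is a description over libraries that share groups. Gata3 and Lef1 were the most alike pair (r = 0.973), followed by Eomes and Rora (0.921) and by Rora and Lef1 (0.9). Tbx21 had r between -0.557 (Eomes) and 0.0868 (Bcl6) with the other members. Of 9805 other genes with a mean of at least 1 FPKM, those most like Lef1 were Vipr1 (0.988), Bcl11b (0.988) and Themis (0.983), and those most like Gata3 were Vipr1 (0.974), Actn1 (0.973) and Slco3a1 (0.965). Those most like Tcf7 were Igfbp4 (0.974), Adgrg5 (0.97) and Cd6 (0.966), and those most like Rora were Ubash3a (0.97), Thy1 (0.966) and Crebl2 (0.961).

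The genes most like Tbx21 were Shfl (0.934), Trafd1 (0.916) and Tap1 (0.911), which are known as interferon-induced genes. Those most like Eomes were Ptger4 (0.97), Rnf166 (0.967) and Mylip (0.963). Those most like Ahr were Nedd9 (0.981), Stambpl1 (0.981) and Spin1 (0.979), and those most like Maf were P2rx7 (0.941), F2r (0.922) and Atp8b4 (0.921). Bcl6 had the weakest likeness to any gene, with Fosl2 (0.82), Tnfrsf1a (0.793) and Zyx (0.787).

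Other regulators of helper T cell fate changed in both directions. Of 25 such genes, 7 rose and 8 fell on day 1 in PKR KO mice and 5 rose and 12 fell in WT mice; on day 2, 4 rose and 15 fell in PKR KO mice and 4 rose and 18 fell in WT mice. Their median log2 change on day 2 was -0.51 in PKR KO mice and -0.59 in WT mice. Batf, a partner of IRF4 in activated T and B cells, rose on day 1 by 2.20 ± 0.26 in PKR KO mice and by 1.74 ± 0.25 in WT mice (log2). Irf4 rose on day 2 by 1.31 ± 0.17 in PKR KO mice and by 1.34 ± 0.17 in WT mice (log2). All 8 plasma cell markers rose on that day too, and the part of plasma cells in the rise of Irf4 was not tested. Id3, an inhibitor of E proteins, fell on day 2, with log2 changes of -2.24 ± 0.22 in PKR KO mice and -2.09 ± 0.22 in WT mice. On day 5, 1 rose and 12 fell in PKR KO mice and 1 rose and 16 fell in WT mice. Of 9 regulatory T cell markers, 8 fell on day 2 in each genotype, and Ctla4 was the one that rose.

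On day 2 the protein-coding isoforms of Rora and of Maf shown here had lower levels than on day 0; a fragment shared by several isoforms enters the deposited count of each. The short protein-coding isoform of Rora (2591 bases) had a mean of 0.158 FPKM in KO_D2 against 0.689 FPKM in KO_D0. It rested on 7 and 26 fragments in KO_D2, against 99 and 65 in KO_D0. The library labelled KO_D2 replicate 1 had 0.0759 FPKM and KO_D2 replicate 2 had 0.241 FPKM, against 0.765 and 0.612 FPKM in KO_D0. The long one (10878 bases) had a mean of 0.167 FPKM in KO_D2 against 0.602 FPKM in KO_D0. In WT mice the short one had 0.268 FPKM in WT_D2 against 0.775 FPKM in WT_D0, and the long one 0.167 FPKM in WT_D2 against 0.553 FPKM in WT_D0. For Maf, the isoform of 3223 bases had 0.761 FPKM in KO_D2 against 1.12 FPKM in KO_D0, and the one of 6360 bases 1.55 FPKM in KO_D2 against 2.41 FPKM in KO_D0. On day 1 the shorter Maf isoform had a mean of 1.32 FPKM in WT_D1 against 1.43 FPKM in WT_D0. Its libraries overlapped, at 1.495 and 1.135 FPKM in WT_D1 and 1.537 and 1.322 FPKM in WT_D0. The longer had 2.94 FPKM in WT_D1 against 2.46 FPKM in WT_D0, but FPKM has no composition scaling. After TMM scaling the longer had a mean of 15.61 CPM in WT_D1 against 16.05 CPM in WT_D0, so a difference in direction is not shown. Isoforms were not tested for a difference in their change.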

How the data were processed

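Spleen RNA of 16 libraries was measured, 2 for each of 8 groups set by genotype and day. The authors deposited, per the file headers, a fragment count, an FPM signal (depth-scaled coverage, fragments per 1000000) and an FPKM for each of 142604 transcripts. The submitters' processing notes name mm10, bcl2fastq 2.17.1.14, Trimmomatic, HISAT2 and TopHat; the program that counted fragments, with its annotation, is not given in the sources used here. Library totals are the count over FPM. Summed counts exceeded these totals 1.48 to 2.12 times, because a fragment is counted in each isoform it overlaps. So each symbol was represented by its protein-coding transcript of highest mean count, with types from GENCODE mouse release 21, which held 99.1% of the identifiers.

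Counts were filtered with filterByExpr of edgeR 4.0.16 (18745 genes), scaled by TMM and tested with the robust quasi-likelihood F test, 8 groups in 1 fit with 8 residual degrees of freedom, and Benjamini-Hochberg adjustment over all genes of each of 16 comparisons. CPM are counts over total fragments times the TMM factor. SEs were obtained as the absolute log2 change divided by the root of the F statistic, and 95% intervals use 8 degrees of freedom. Libraries of a group are separate pools, and p-values measure the spread between those. The fit was also run on simulated counts with the same dispersion for every gene and with changes set only in WT_D2. The simulation did not include the unequal spread between libraries seen here, so it gives no check of calls that rest on the KO_D2 libraries.

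Replicate numbers were not used as pairs: deviations of same-numbered libraries correlated at -0.211 to 0.333 (median 0.014) over 28 pairs of groups. The 2 libraries of each group differed by more than counting noise (chi-square per gene at least 13.7). The 9 members and the 18 gene lists were chosen with earlier results of these data known. Named genes were the members, Eif2ak2, up to 3 genes of a list with the smallest adjusted p in each direction and the 3 genes most like each member. Promoter sequences are from RefSeq (GRCm38.p6). Alternatives were 2 other filters, the size factors of DESeq2, DESeq2 1.42.0, limma-trend (limma 3.58.1) on log2 FPKM with pseudocounts of 0.1 and 1, other choices of transcript, a replicate block, fits of only the groups compared and leaving out each library; the leave-one-out of the 2 FPKM ratios was added after the values were seen.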

Additional observations from a re-analysis of the deposited data

How the results depend on the processing

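Over 3687 combinations of a member's change and an alternative, 3584 kept their direction and side of the threshold, 65 calls were lost, 38 were gained and none reversed; 128 changes called in neither turned sign. The number of members called moved by over 1.5 times in these cases. With the sum of all transcripts KO_D5 against KO_D0 had 2 (main 4). With no filter WT_D5 against WT_D2 had 5 (main 3) and KO_D1 against WT_D1 had 1, Bcl6. With only the groups compared KO_D5 against KO_D2 had 3 (main 5), WT_D5 against WT_D2 had 7 and KO_D1 against WT_D1 had 1. Leaving out 1 library gave 2 to 5 for KO_D5 against KO_D0, 3 to 5 for WT_D5 against WT_D0 (main 5), 2 to 6 for WT_D5 against WT_D2 and 0 to 1 for KO_D2 against WT_D2 (main 0). The causes were not tested. For KO_D5 against KO_D2 the count without 1 library was 4 to 7, within 1.5 times. With a replicate block KO_D5 against KO_D2 had 6 members called (Tcf7 1.02, adjusted p = 0.0482) and WT_D5 against WT_D2 had 4 (Lef1 0.73, adjusted p = 0.0462); it changed no other call of a member. Rora was left out by the FPKM minimum of 1 and by limma-trend.

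Over all genes, leaving out 1 library gave as few as 4626 calls in WT_D5 against WT_D0 (main 7406) and 3663 in WT_D5 against WT_D2 (main 5496). Calls between genotypes ranged over all alternatives from 0 to 63 on day 0 (main 4), 3 to 432 on day 1 (main 35), 0 to 63 on day 2 (main 0) and 0 to 208 on day 5 (main 1), and for the interactions from 0 to 478, 0 to 19 and 0 to 156 (main 32, 0 and 0); the average gave 1 to 97 (main 5). With limma-trend on log2(FPKM + 0.1), which has no composition scaling, the median of all genes on day 1 shifted by 0.29 in WT and 0.15 in PKR KO mice, and 80.5% and 66.5% of calls were higher, against 49.1% and 49.8% with TMM. The Tbx21 rise on day 1 kept its call in both genotypes there. Depth limits Gata3 most, with 29 fragments in the library labelled KO_D2 replicate 1.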
